A study of Saccharomyces cerevisiae YPS1009 with 18 samples.

Results

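The early change in abundance of plasmids that add a gene copy was measured in a yeast strain that carries a duplicated chromosome XII. The comparison used 6 of the 18 samples of the series, the 3 day 1 and the 3 T0 samples of strain AGY1612, and every row of the count table, which has 4872 rows. AGY1612 (MATa ho-Δ1 his3-Δ) is a haploid of the oak-soil isolate YPS1009 that holds a second copy of chromosome XII, and the 2 copies carry His3MX6 and NatMX at the same intergenic site between BER1 and INA1. The comparison strain AGY1611 (MATa ho-Δ1, NatMX at that site) is the euploid haploid. The sample labels give strain numbers alone, and the ploidy is that of the study's methods and of a header line of the count table. Both strains held the MoBY 1.0 collection, in which each plasmid carries 1 yeast gene with its native flanks and a DNA barcode. T0 is the cells left over from the thawed frozen pool. Day 1 is the cells that formed a lawn on selective plates after 24 h in YPD with G418, the drug that selects for the plasmid. The 3 replicates of each strain came from 2 transformations. Which replicate came from which was not analysed here, so cultures may share a transformation. The p-values of single plasmids below rest on a spread estimated over all 18 samples, which pools T0, day 1 and later samples. T0 samples spread far less than day 1 samples, so this is not the spread between day 1 cultures alone.

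MoBY plasmids carry a yeast centromere, which keeps them near a single copy per cell, so that a haploid with such a plasmid holds its usual copy of the gene plus another. A barcode that becomes rarer between 2 samples can mark cells that grew more slowly, lost the plasmid or failed to form a colony. A barcode that becomes more common can mark the opposite. These routes cannot be told apart from the counts. Genes whose product works in a fixed ratio with partners, such as histones, tubulins and subunits of large complexes, are the textbook examples of genes whose extra copy can be harmful.

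Sequencing depth was 3491412 to 5211070 barcode counts in the AGY1612 T0 samples and 1222135 to 1925967 in the day 1 samples. After the filter on low counts 4508 plasmids were tested. Levels are given as CPM, the counts scaled to a common library size with TMM factors. T0 samples were close to each other, with a biological coefficient of variation of 11.9%, and day 1 samples were not, at 67.6%. In the euploid these values were 6.37% and 70.6%. The pool narrowed over the first day. The effective number of plasmids, the exponential of the Shannon entropy of the count shares, was 3401 ± 3.99 at T0 and 2693 ± 25.2 at day 1 (SD, n = 3), and the 2 groups did not overlap (exact two-sided permutation test, p = 0.1, the smallest that 3 against 3 allows). Plasmids without a count numbered 134 to 144 at T0 and 269, 277 and 619 in day 1 replicates 1, 2 and 3.

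The replicate numbers did not tie a day 1 sample to its T0 sample throughout. In 109 plasmids the AGY1612 T0 samples were more than 2-fold apart, and in 108 of them T0 replicate 1 was the sample apart. Over those 109 plasmids the deviations of day 1 replicate 2 correlated with those of T0 replicate 2 (r = 0.57). They correlated nearly as much with those of T0 replicate 3 (r = 0.51). Day 1 replicate 3 correlated with T0 replicate 1 (r = 0.25) and not with T0 replicate 3 (r = -0.21). Deviations were taken from the mean of 3 samples, so these values depend on each other. The empty vector showed the same break. It had 5, 579 and 892 counts in T0 replicates 1, 2 and 3 and 0, 317 and 0 counts at day 1. No fold change is given for it, and the labels were kept as deposited. Of the 109 plasmids, 1 was among those called below.

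Of the 4508 plasmids, 50 were more abundant at day 1 than at T0 in AGY1612 and 79 were less abundant, at an adjusted p (FDR) below 0.1 in edgeR's quasi-likelihood test, which is 1.11% and 1.75% of those tested. The called rises ran from 0.72 to 2.49 on the log2 scale with a median of 1.48, and the called falls from -5.14 to -1.34 with a median of -2.61. All 3 day 1 values lay above all 3 T0 values for 826 plasmids (18.3%) and below them for 1168 (25.9%), most of them without passing the test. The euploid, measured in the same way, had 11 rises (0.244%) and 2 falls (0.0444%), and 0 and 0 with the replicate number as a block. These counts depend on the fit. The median log2 fold change of all plasmids was 0.13 with TMM scaling, 0.0040 with median-of-ratios scaling and -0.12 with total counts, and the split of rises and falls was 50 and 79, 29 and 99, and 27 and 195, in that order. Without any 1 of the AGY1612 T0 samples no plasmid was called (617 to 642 had an unadjusted p below 0.05), and without day 1 replicate 3 the counts were 194 and 27. All 50 rises and all 79 falls kept their direction in each alternative fit that was run.

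The depth of the falls differed between the day 1 samples. Among 3134 plasmids with at least 100 CPM at T0 in both strains, the day 1 level in replicates 1 and 2 of AGY1612 never went below 0.0829 and 0.0603 of the mean T0 level. In replicate 3 it reached 0, and 93 plasmids were below 0.05. Those 93 plasmids had a median ratio of 0.157 in replicate 1, 0.162 in replicate 2 and 0.0141 in replicate 3, and 28 of them were called. The typical plasmid of this set was thus low in all 3 samples, and the level that remained was lowest in replicate 3. In AGY1611 the lowest ratios were 0.0847, 0.142 and 0.00970. The source of the remaining level was not tested.

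**Figure D1:**
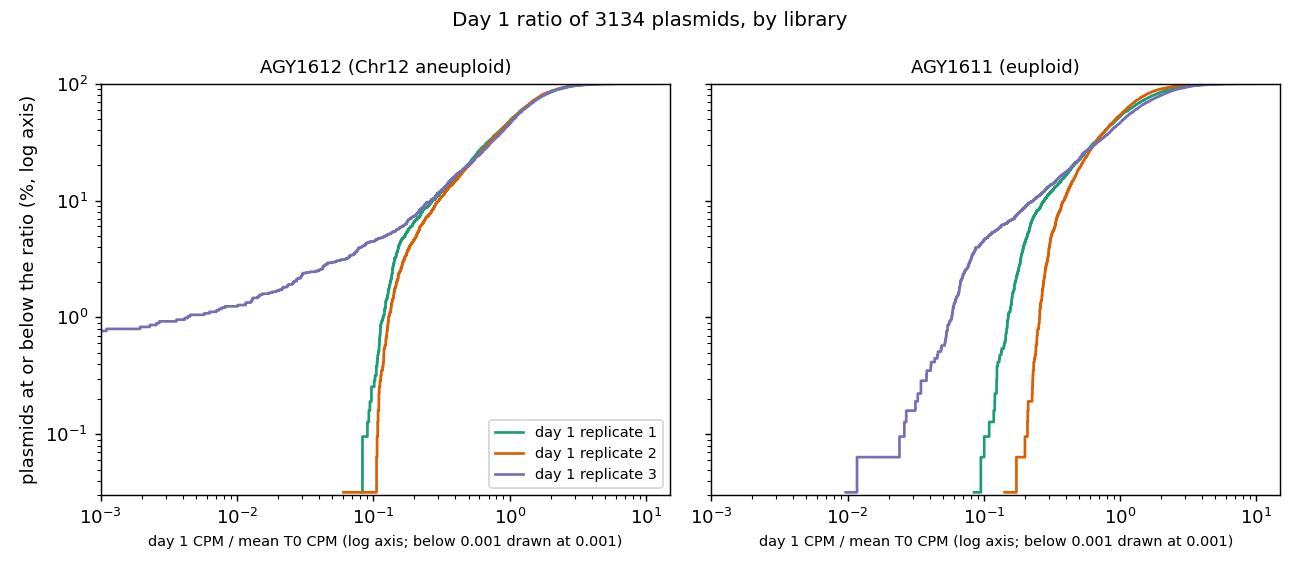
Cumulative share of 3134 plasmids (vertical axis, percent, log scale) with a ratio of day 1 CPM to mean T0 CPM at or below the value on the horizontal axis (log scale), for the 3 day 1 samples of AGY1612 (left) and AGY1611 (right). The curves of AGY1612 replicates 1 and 2 end near 0.1, and that of replicate 3 runs on to 0.

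At an FDR below 0.05 there were 4 plasmids. RPS30A, a protein of the small ribosomal subunit encoded on chromosome XII, was at 302, 328 and 335 CPM in the T0 samples and at 830.4, 1278 and 751 CPM at day 1. This was a log2 fold change of 1.57 ± 0.30 (SE, FDR = 0.040). ATP16, the delta subunit of the mitochondrial ATP synthase, was at 490.4, 406 and 434 CPM at T0 and at 1101, 1092 and 1303 CPM at day 1, a change of 1.39 ± 0.26 (FDR = 0.036). In both genes all day 1 samples were more than 2-fold above the mean of the T0 samples. The other 2 fell. APC9, a subunit of the anaphase-promoting complex that is also encoded on chromosome XII, went from 555, 513 and 499 CPM to 80.0, 71.2 and 21.5 CPM (-3.17 ± 0.58, FDR = 0.036). PRP46, a splicing factor, went from 749.6, 768 and 774 CPM to 176, 268 and 247 CPM (-1.73 ± 0.32, FDR = 0.036). It lies outside the rule for named genes and was chosen after its values were seen.

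The largest called rises came from genes of varied roles. SNC2, a vesicle SNARE of the secretory pathway, had the largest fitted rise among the called plasmids. It stood at 248, 231 and 234 CPM at T0 and at 3027, 507 and 473 CPM at day 1 (2.49 ± 0.58, FDR = 0.061), so day 1 replicate 1 was far above the other two. TAT1, an amino acid permease, went from 229, 251 and 246 CPM to 417, 2218 and 624 CPM (2.17 ± 0.53, FDR = 0.061), and here replicate 2 was the high sample. CCA1, which adds the CCA end to tRNAs, went from 121, 122 and 109.8 CPM to 828, 502 and 246 CPM (2.16 ± 0.49, FDR = 0.061). ERG20, the farnesyl pyrophosphate synthase of the sterol pathway, was the most even of these. It went from 137, 136 and 126 CPM to 719, 633 and 418 CPM (2.15 ± 0.62, FDR = 0.094), and it was the 1 plasmid that lay in the top 5% of the day 1 ratio in all 3 samples. The remaining plasmids of the 12 largest rises were YHR175W-A, BPL1 (biotin ligase), UBS1, FCY22 (a putative purine-cytosine permease), YNG2 (a subunit of the NuA4 histone acetyltransferase), YLR225C, TIM12 (mitochondrial protein import) and RAD6, with changes between 1.58 and 2.32. The mean level of the called rises at T0 ran from 118 to 1678 CPM, so none was a rare plasmid.

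Several of the large falls had a similar profile. ERG3, a sterol desaturase, went from 444, 256 and 257 CPM to 39.2, 34.0 and 0.859 CPM (-3.68 ± 0.88, FDR = 0.061). NNF1, part of the MIND complex of the kinetochore, went from 199.9, 188 and 182 CPM to 23.2, 23.7 and 0.859 CPM (-3.56 ± 0.96, FDR = 0.084). In both genes replicates 1 and 2 kept similar low levels, and replicate 3 kept less. SSQ1, a mitochondrial Hsp70 for iron-sulfur cluster assembly, began as one of the more common plasmids and went from 1003, 1036 and 979 CPM to 124, 134 and 2.58 CPM (-3.53 ± 0.81, FDR = 0.061). Other large falls were DEG1, MET14, DOM34, SAM3 (a permease for S-adenosylmethionine), GAT3 (a GATA-family zinc finger protein), VVS1 and YLR030W, between -3.57 and -3.25, and RRP6. RRP6, a nuclease of the nuclear exosome, was rare from the start. It had 136 counts over the T0 samples and 1 count over the day 1 samples, a ratio of day 1 to T0 of 0.0197 with a 95% exact binomial interval of 0.000495 to 0.112 that covers counting error alone. Of the 79 falls, RRP6 was the 1 plasmid under 100 CPM at T0.

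**Figure D2:**
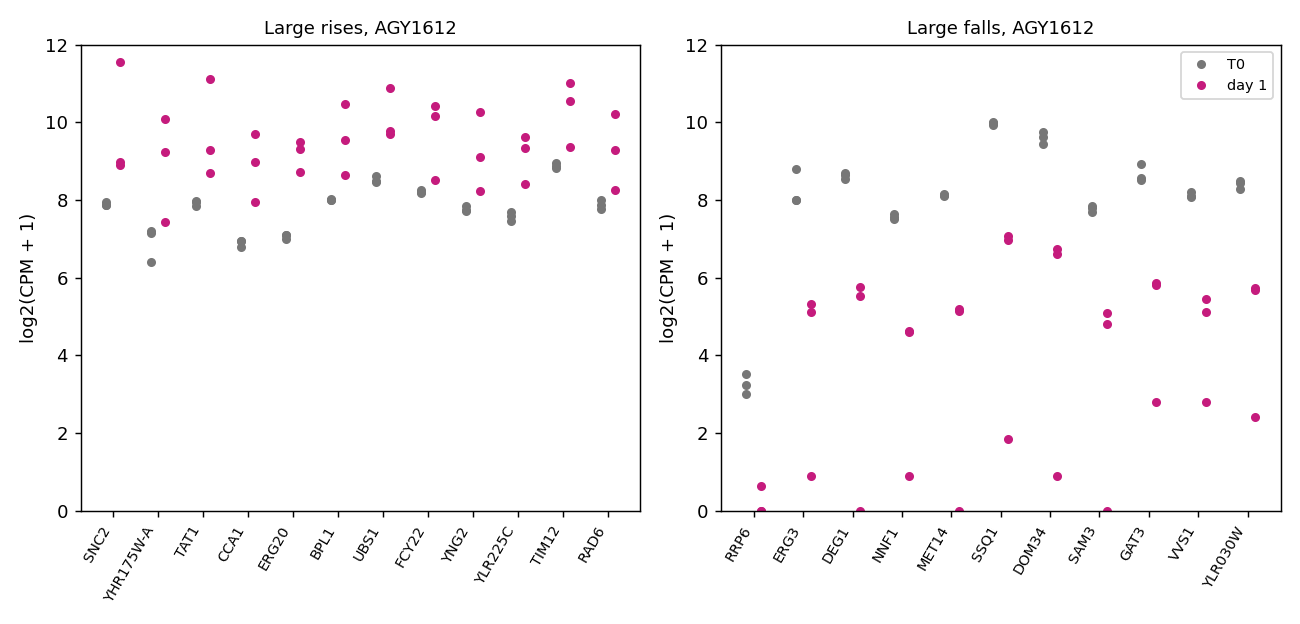
Level of called plasmids with large rises (left) and large falls (right) named in the text, as log2(CPM + 1) in each of the 3 T0 samples (grey) and 3 day 1 samples (pink) of AGY1612. T0 samples lie together, rises spread over day 1 samples, and in most falls 2 day 1 samples lie together well below T0 and the other lies lower still.

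Plasmids at 10 to 100 CPM had no calls. The 380 at 10 to 30 CPM had a median log2 fold change of -1.02 and the 826 at 30 to 100 CPM one of -0.14. The 1180 plasmids at 100 to 200 CPM had 8 rises and 6 falls, and the 1620 at 200 to 400 CPM had 34 and 54. Gene length moved with the change as well. The median log2 fold change was 0.22 in the 1124 shortest genes and -0.15 in the 1126 longest, and in AGY1611 these medians were 0.27 and -0.28. The part of length and of starting level in the results was not tested.

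Subunits of the ATP synthase and the proteasome had the highest medians among the lists described here that were not drawn from the screen. The 18 tested genes for the mitochondrial ATP synthase had a median log2 fold change of 0.68, against 0.13 for all plasmids. Of these genes 14 were above 0, as were 2467 of all 4508 plasmids. ATP16 and ATP15 rose and ATP11 fell (1.11% of all plasmids were called rises and 1.75% called falls). ATP15, the epsilon subunit, was the most common of the called plasmids and moved little but evenly, from 1690, 1646 and 1698 CPM to 3018, 2661 and 2625 CPM (0.72 ± 0.21, FDR = 0.098). ATP11, a chaperone that assembles the catalytic part of the enzyme and is not one of its subunits, went from 368, 377 and 373 CPM to 65.1, 133 and 172 CPM (-1.60 ± 0.47, FDR = 0.098). In 9 of the 18 all day 1 samples lay above all T0 samples (18.3% of all plasmids did) and in 1 below (25.9% of all did). The median in AGY1611 was 0.67.

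Of 35 proteasome genes, 1 was called, a rise (1.11% of all plasmids were called rises). RPN10, the ubiquitin receptor of the regulatory particle, rose from 231, 199.9 and 199 CPM to 637, 708 and 434 CPM (FDR = 0.098). The list had a median of 0.50, with 28 genes above 0 (2467 of all 4508 plasmids were). All day 1 samples lay above all T0 samples in 14 (40.0%, against 18.3% of all plasmids) and below in 2 (5.71%, against 25.9%). In the 29 genes for ubiquitin, its conjugating enzymes and ligases the median was 0.39, and UBS1 and RAD6 rose. UBS1, a positive regulator of the conjugating enzyme Cdc34, went from 391, 357 and 355 CPM to 833, 1885 and 869.6 CPM (1.70 ± 0.47, FDR = 0.084). RAD6, itself a conjugating enzyme, went from 218, 255 and 233 CPM to 307, 1180 and 626 CPM (1.58 ± 0.44, FDR = 0.084). Both genes had their highest value in day 1 replicate 2. The medians of the proteasome and ubiquitin lists in AGY1611 were 0.45 and 0.49.

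Histone genes had one of the lowest list medians. Of 13 histone plasmids, 10 were below 0 (2041 of all 4508 plasmids were) and the median was -0.72. Called falls were 2 of the 13, against 1.75% of all plasmids. HHF2, a core histone, went from 365, 271 and 266 CPM to 62.9, 45.9 and 26.6 CPM (-2.73 ± 0.66, FDR = 0.061), and HTA2, another core histone, from 336, 347 and 355 CPM to 66.8, 77.2 and 23.2 CPM (-2.63 ± 0.74, FDR = 0.085). The histone median in AGY1611 was lower still, at -1.31. Of the 10 genes for tubulins and their folding none was called, 5 were above 0 and 5 below, and in 5 of them all day 1 samples lay below all T0 samples (25.9% of all plasmids did). TUB2, the essential beta-tubulin, was at 167, 170.2 and 177 CPM at T0 and at 25.4, 22.1 and 0 CPM at day 1 (-3.42 ± 1.08, FDR = 0.11). It was chosen after its values were seen, and its difference did not pass the test. The 56 genes of the spindle pole body and kinetochore had a median of -0.27, with NNF1 and CNM67 (a spindle pole body component, -1.93 ± 0.56, FDR = 0.096) falling.

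The vacuolar ATPase and the amino acid permeases each held a rise and a fall (1.11% of all plasmids were called rises and 1.75% called falls). Among 18 vacuolar ATPase genes the median was -0.51. VMA7, a subunit of the peripheral part of the pump, went from 134, 206 and 254 CPM to 685, 321 and 704 CPM (1.52 ± 0.36, FDR = 0.061), and VPH1, a membrane subunit, from 294, 303 and 305 CPM to 58.5, 90.6 and 5.16 CPM (-2.54 ± 0.74, FDR = 0.096). Among 14 permeases the median was -0.72, TAT1 rose and SAM3 fell from 222, 228 and 206 CPM to 27.0, 32.9 and 0 CPM (-3.43 ± 1.00, FDR = 0.098). The permease median in AGY1611 was 0.032, and the difference between strains was not tested for lists.

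Cytosolic ribosomal proteins had medians close to that of all plasmids. The 74 plasmids for the large subunit had no call and a median of 0.060. The 54 for the small subunit had a median of 0.054, with RPS30A rising and RPS22B and RPS10A among the falls. RPS22B went from 311, 302 and 327 CPM to 60.1, 83.6 and 55.0 CPM (-2.24 ± 0.55, FDR = 0.061). Mitochondrial ribosomal proteins had a median of 0.40 over 65 plasmids, where RSM26 rose (1.41 ± 0.38, FDR = 0.081) and MRPL44 fell (-2.70 ± 0.60, FDR = 0.061). Of 37 translation factors, TIF2, an RNA helicase of translation initiation, fell from 353, 415 and 417 CPM to 54.6, 87.9 and 124 CPM (-2.16 ± 0.47, FDR = 0.061), and the list median was -0.41 against -0.018 in AGY1611. Single members of other lists were called too, where 1.11% of all plasmids were called rises and 1.75% called falls. At these shares a single call in a list, or none, is no result about that list. RPC31 (RNA polymerase III) and COX8 (cytochrome c oxidase) rose, and TPS3 (trehalose synthesis), YDJ1 (an Hsp40 chaperone), RNR2 (ribonucleotide reductase), ACS2 (acetyl-CoA synthesis), MNN5 (mannosylation), NOT5 (mRNA decay), PPH22 (a protein phosphatase) and ATG16 (autophagy) fell. The lists for nucleolar ribosome assembly, aminoacyl-tRNA synthetases, deubiquitinating enzymes, actin, cyclins, COPI and COPII coats, hexose transporters, Ras and protein kinase A, the nuclear pore, the GLC7 phosphatase and mating held no call, with medians between -0.20 and 0.48.

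Ribosome quality control (RQC) clears stalled ribosomes and their unfinished chains, and is the pathway on which the study centred. Of 18 tested genes for RQC and ribosome rescue none was a called rise and 1 was a called fall. The median was 0.055, and it was -0.59 in AGY1611, a difference that was not tested. Of all plasmids 1.11% were called rises and 1.75% called falls. The fall was DOM34, which splits stalled ribosomes, from 859, 693 and 788 CPM to 106, 96.0 and 0.859 CPM (-3.51 ± 0.87, FDR = 0.061). DOM34 is also among the genes next to a centromere, described below, several of which had similar falls. Of 16 tested genes that the study named for RQC or took from the screen for later work, UBS1 alone was called. RQC1 was at 162, 172 and 167 CPM at T0 and at 154, 449 and 244 CPM at day 1 (0.76 ± 0.55, FDR = 0.44), and 1 of its day 1 samples lay below T0. HEL2 was at 50.7, 52.7 and 55.7 CPM and then at 122, 11.3 and 0 CPM, so its day 1 samples lay on both sides of T0. RKR1, the ubiquitin ligase of the pathway, had 14.4, 21.9 and 19.7 CPM and then 6.62, 3.24 and 32.7 CPM. The sign of the fitted change of HEL2 and RKR1 turned with the sample left out. The non-called genes nearest the threshold were HST2, a sirtuin (1.48 ± 0.48, FDR = 0.11), SGT1 (1.26 ± 0.45, FDR = 0.14) and HUL5, a proteasome-associated ubiquitin ligase (1.04 ± 0.39, FDR = 0.15). In all 3 genes every day 1 sample lay above every T0 sample (18.3% of all plasmids did). HST2 and SGT1 are among the early genes that the study chose on these samples.

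The study's early candidates were chosen on these samples, so their direction is no independent evidence. Of 42 plasmids tested, COX8, TAT1, VMA7 and UBS1 rose, 40 had a change above 0 and the median was 0.91, against 0.36 in AGY1611. A gene with 2 plasmids counts with both here, and the lowest change, -2.49, was that of the second DID4 plasmid. The 21 tested late candidates had no call and a median of 0.0040. The study chose them on these samples too, for greater enrichment at day 28 than at day 1. A low day 1 change is thus part of that choice and no independent evidence either.

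Chromosome XII is present in 2 copies in AGY1612, so a plasmid with one of its genes adds to a gene already duplicated. Of 409 tested plasmids for genes of that chromosome 3 rose, which was RPS30A, COX8 and YLR225C, and 13 fell, against 47 and 66 of 4099 plasmids for other chromosomes. The median log2 fold change was -0.043 for chromosome XII and 0.14 for the others. In AGY1611, where chromosome XII is present once, the medians were -0.091 and 0.062. Besides ERG3, SSQ1 and APC9 the falls with the lowest p included IOC2, a member of a chromatin remodelling complex, from 479, 538 and 543 CPM to 93.8, 95.5 and 6.02 CPM (-2.99 ± 0.71, FDR = 0.061).

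Genes next to a centromere contributed 4 of the 79 falls (1.75% of all plasmids were called falls). In yeast systematic names the gene nearest the centromere on each arm carries the number 001, and 26 such plasmids were tested. DEG1, a tRNA pseudouridine synthase, went from 374, 415 and 398 CPM to 45.2, 53.4 and 0 CPM (-3.57 ± 0.89, FDR = 0.063). MET14, a kinase of sulfate assimilation, went from 273, 286 and 278 CPM to 35.9, 34.5 and 0 CPM (-3.55 ± 0.99, FDR = 0.091). DOM34 and RRP6 were the other two. The 26 plasmids differed widely. Of the 19 with at least 100 CPM at T0 in both strains, 8 (42.1%) lay in the lowest 5% of the day 1 ratio in every AGY1612 day 1 sample, against 51 of all 3134 such plasmids (1.63%). They were TFC3, ECM15, DEG1, ERG26, AVT1, MET14, DOM34 and CIT3, and 5 of the 8 were also in the lowest 5% in every AGY1611 day 1 sample. In contrast, 8 of the 26 had a fitted change above 0, such as NTH2 (1.22 ± 0.37, FDR = 0.104) and SGN1 (1.46 ± 0.44, FDR = 0.102). The highest of the 8, DNM1 (2.15 ± 1.28, FDR = 0.34), rested on 1 sample. It went from 19.0, 27.7 and 24.8 CPM to 3.31, 2.70 and 312 CPM. All day 1 samples lay above all T0 samples in 4 of the 26 (15.4%, against 18.3% of all plasmids). The contrast between the 26 plasmids was noticed in the data and carries no test.

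**Figure D3:**
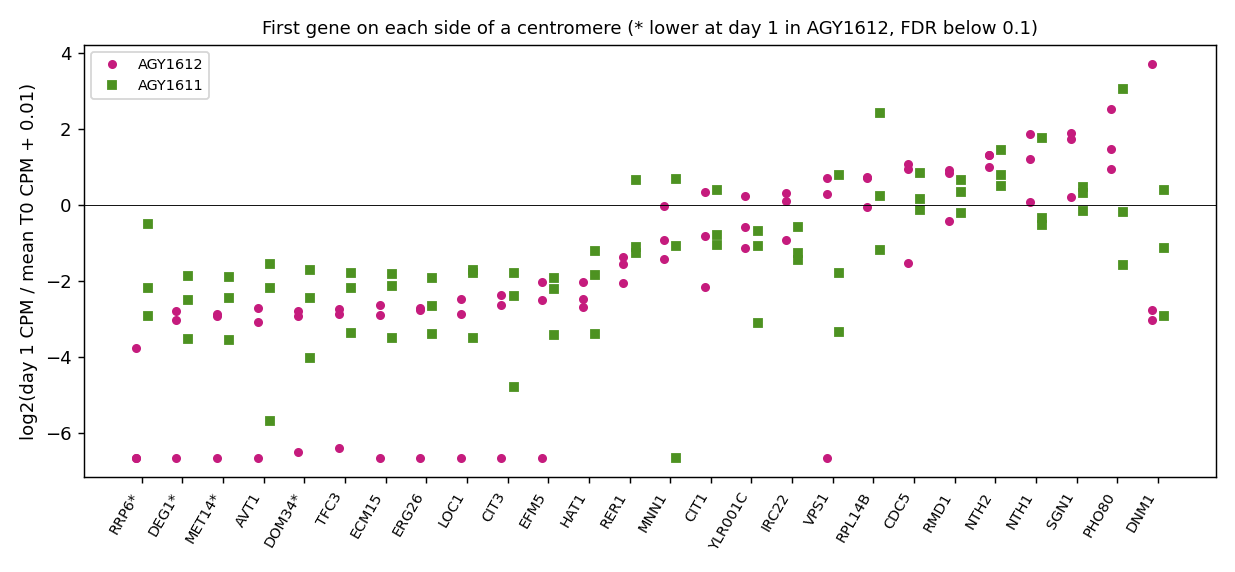
Day 1 change of the 26 tested plasmids whose gene is the first on either side of a centromere, as log2 of the ratio of day 1 CPM to mean T0 CPM plus 0.01, for each of 3 AGY1612 samples (circles) and 3 AGY1611 samples (squares). A group of plasmids at the left is low in all samples of both strains, and most of them have a ratio of 0 in AGY1612 replicate 3. Most plasmids at the right lie around or above the axis value of 0. DNM1, at the far right, had ratios of 0.139, 0.113 and 13.1 in AGY1612 replicates 1, 2 and 3.

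The day 1 changes of the 2 strains were correlated. Across the 4508 plasmids, which share libraries and are not independent replicates, the log2 fold changes in AGY1612 and AGY1611 had a Pearson r of 0.57, and of 0.68 among the 3134 with at least 100 CPM. Of the plasmids called in AGY1612, 46 of 50 rises and 78 of 79 falls had the same sign in AGY1611, with medians of 0.81 and -1.56 there. Among all 4508 plasmids, 3173 had the same sign in both strains. In 33 of the 50 rises all AGY1611 day 1 samples lay above its T0 samples (13.4% of all plasmids did), and in 72 of the 79 falls all lay below (26.8% of all did). The lowest 5% in all 3 day 1 samples held 51 plasmids in AGY1612 and 40 in AGY1611, with 18 shared, which is 35.3% of the first and 45.0% of the second.

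**Figure D4:**
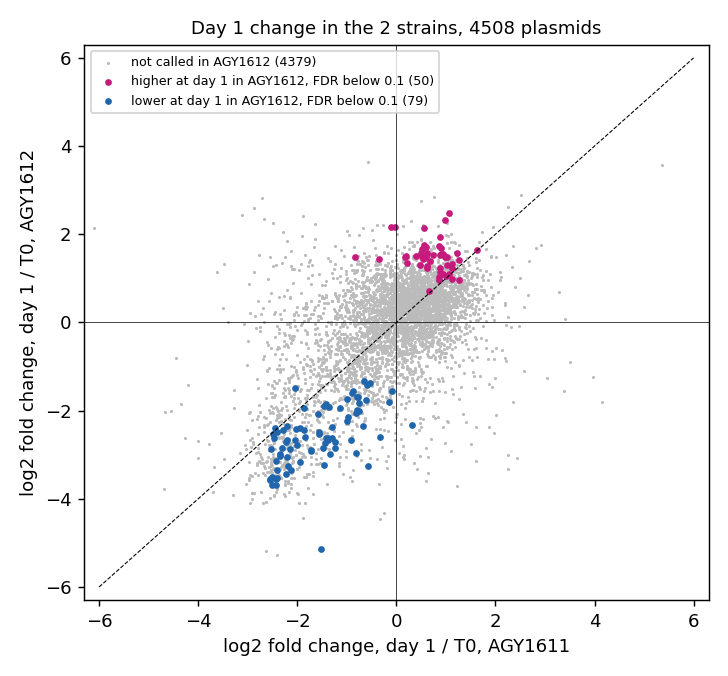
Log2 fold change from T0 to day 1 in AGY1611 (horizontal axis) and AGY1612 (vertical axis) for 4508 plasmids, with the 50 called rises and 79 called falls of AGY1612 in colour and the line of equal change dashed. Most called plasmids changed in the same direction in both strains, as did 3173 of all 4508 plasmids. They were selected on the AGY1612 change, so its size relative to AGY1611 is no result.

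No plasmid passed the test of the strain difference in the day 1 change (0% called, edgeR's quasi-likelihood test). With an unadjusted p below 0.05 there were 172, and DESeq2 and limma called 0 as well. The 3 plasmids with the lowest p were RRM3, MND2 and MDM38, and their adjusted p was 0.998. RRM3, a DNA helicase that helps replication forks past bound proteins, went from 239, 269 and 241 CPM to 713, 754 and 626 CPM in AGY1612 (1.48 ± 0.41, FDR = 0.084). In AGY1611 it went from 239, 248 and 237 CPM to 226, 118 and 61.9 CPM. The difference between strains was 2.31 ± 0.58. MND2, another subunit of the anaphase-promoting complex, differed by -4.11 ± 1.09, with 19.3, 50.2 and 22.3 CPM at day 1 in AGY1612 and 199.6, 101 and 1173 CPM in AGY1611, where a single sample carried the rise. Among the largest rises, TAT1 had a change of -0.11 and CCA1 of -0.023 in AGY1611, and the strain differences of 2.28 ± 0.73 and 2.18 ± 0.68 did not pass either.

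Between day 1 and day 28, 12 of the 79 called falls were called lower again and 1 was called higher. The others passed no further test. Some of the depleted barcodes reached 0 or near it by day 28. This comparison shares the day 1 samples with the one above, and 58 plasmids were called lower (1.29%) and 11 higher (0.244%). The 5 plasmids called at day 1 with the lowest p for the later change were DMO2, YLR030W, YPS5, SSQ1 and KSP1. SSQ1 was at 2.05, 0.873 and 2.16 CPM at day 28 (FDR = 0.012) and YLR030W at 0 in all 3 samples (FDR = 0.0069). KSP1, a protein kinase, had stood at 66.2, 83.6 and 33.5 CPM at day 1 and was at 4.11, 0.873 and 9.73 CPM at day 28 (FDR = 0.014). APC9, in contrast, was at 149.8, 79.5 and 80.0 CPM at day 28 after 80.0, 71.2 and 21.5 CPM at day 1 (FDR = 0.59). RPS30A and ATP16 had log2 changes of -0.56 and -0.44 after day 1 (FDR = 0.49 and 0.53).

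A pair of plasmid entries exists for 54 genes, and for 28 of them both entries had at least 100 CPM at T0 in both strains. What separates the entries of a gene was not analysed here. The entries of 1 gene did not change alike. Across the 28 genes the log2 fold changes of entry 1 and entry 2 in AGY1612 had a Pearson r of -0.32, the median distance between them was 1.51, and 17 of the 28 pairs had opposite signs. Yet a given entry changed alike in both strains, with r = 0.67 over the 56 entries, and from sample to sample, with r between 0.55 and 0.75 for the day 1 ratios. DID4, a subunit of the ESCRT-III complex, shows the pattern and was chosen after its values were seen. DID4 is also among the study's early candidates, which were chosen on these samples. In AGY1612 its entry 1 (DID4_1) went from 187, 180.5 and 170.3 CPM to 306, 339 and 363 CPM, and its entry 2 (DID4_2) from 208, 249 and 259.9 CPM to 34.2, 56.1 and 36.9 CPM. In AGY1611 the changes of the 2 entries were 0.84 and -2.37. Both genes with 1 called entry were uneven too. CMC1_2 changed by -2.92 ± 0.64 (FDR = 0.061) and CMC1_1 by -1.22 ± 0.49 (FDR = 0.16), and MRC1_1 by -2.36 ± 0.60 (FDR = 0.063) and MRC1_2 by -0.50 ± 0.43 (FDR = 0.52). The values of a single plasmid are therefore values of that entry, and the 44 genes with both entries tested had an r of -3.2e-05 between entries.

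**Figure D5:**
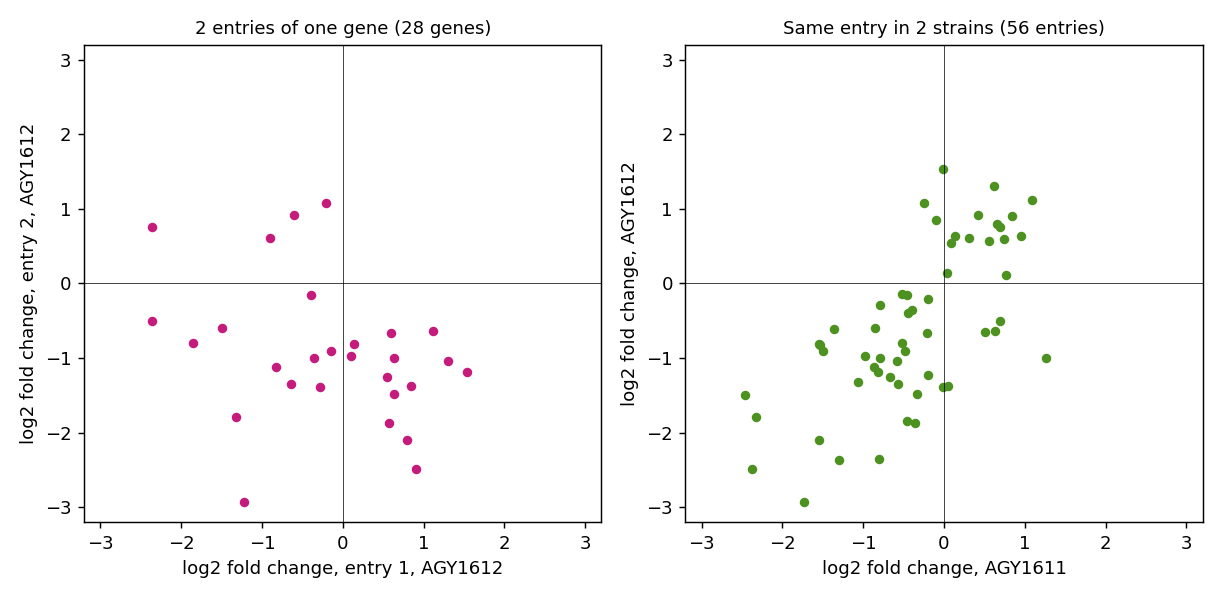
Left, log2 fold change from T0 to day 1 in AGY1612 of entry 1 (horizontal) and entry 2 (vertical) of 28 genes with a pair of plasmid entries. Right, the 56 entries in AGY1611 (horizontal) and AGY1612 (vertical). The points on the left do not follow a rising line and those on the right do.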

How the data were processed

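Barcodes of the MoBY plasmids were amplified with 20 PCR cycles and sequenced in 18 samples, 3 in each of 6 groups. The values deposited by the authors are raw counts of barcode reads, with 1 row for each plasmid. The counting program is not given in the sources used here. Of 4872 rows, 86 had no counts, 1 was the empty vector, and 4865 matched RefSeq genes of S288C (R64), used for symbols, chromosomes and lengths. No coordinates are given.

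Counts were filtered with filterByExpr, scaled with TMM and tested with the quasi-likelihood F-test of edgeR 4.0.16 (R 4.3.3) over all 18 samples with 1 coefficient per group, two-sided, with Benjamini-Hochberg adjustment and an FDR threshold of 0.1, the relaxed value of the study. The standard error is the size of the log2 fold change over the square root of F. DESeq2 1.42.0, limma 3.58.1 and other scalings, filters, sample sets and replicate blocks were alternatives. The fits were tested on simulated counts. No list was given a set test.

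The named genes are the 12 largest called rises and 12 largest called falls whose groups do not overlap (at least 20 counts in each AGY1612 T0 sample), called members of each list (at most 4), genes the study named, the 3 lowest p for the strain difference, the 5 lowest p for the later change among called plasmids, called genes of chromosome XII (at most 6), both entries of a gene with 1 called, and called genes beside a centromere. One item that the rule takes is not reported here. Members and 38 gene lists were chosen with earlier results of these data known. Intervals cover counting error alone, since PCR reads without molecular identifiers are not independent molecules.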

Additional observations from a re-analysis of the deposited data

Results flagged for a closer look

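No group held enough samples for a search for single outlying values. Of the 4508 plasmids, 57 (1.26%) had all AGY1612 day 1 samples on one side of its T0 samples and all AGY1611 day 1 samples on the other, 41 of them higher in AGY1612 and 16 lower, and 4 are among the named genes. For each the test of the strain difference gave an adjusted p of 0.998 over all plasmids. RRM3 differed by 2.31 on the log2 scale, MDM38, a protein of the mitochondrial inner membrane, by 2.17, HST2 by 2.09 and POR1, the mitochondrial porin, by 1.67. MDM38 was at 421, 561 and 349.7 CPM at day 1 in AGY1612 and at 94.1, 120.5 and 92.9 CPM in AGY1611, from T0 levels of 175 to 214 CPM in both strains. It then fell in AGY1612 to 32.8, 52.4 and 26.0 CPM at day 28 (edgeR, FDR = 0.00020 against day 1). POR1 was at 412, 326 and 459 CPM and at 109, 114 and 148 CPM, from T0 levels of 276 to 295 CPM.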

How the results depend on the processing

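Rises and falls in AGY1612 numbered 29 and 99 with median-of-ratios scaling, 27 and 195 with total counts, 142 and 371 in DESeq2, 398 and 527 in limma voom with quality weights, 33 and 54 with the 9 samples of the strain, 567 and 672 with its 6 T0 and day 1 samples, 448 and 658 with the 12 T0 and day 1 samples of both strains (an alternative chosen after seeing the data) and 2 and 2 at an FDR below 0.05. Those in AGY1611 numbered 0 and 0 with median-of-ratios scaling, total counts and an FDR below 0.05, 2 and 1 with no filter, 150 and 183 in DESeq2, 183 and 175 in limma, 21 and 0 with its 9 samples, 361 and 413 with its 6 samples and 446 and 334 with the 12. The later falls numbered 167, 8 and 31 in DESeq2, limma and the 9 samples, and 37 at an FDR below 0.05. Leaving out 1 replicate number or 1 sample gave 0 to 194 rises and 0 to 65 falls in AGY1612, 0 to 11 and 0 to 2 in AGY1611, and 6 to 109 later falls, the highest without day 1 replicate 3. The strain difference had 0 calls in each fit run. The cause of these shifts was not tested. DESeq2 shared 50 of the 50 rises and 78 of the 79 falls. APC9, RPS30A and ATP16 lost the call where a replicate number or a T0 sample was left out (FDR 0.14 to 0.28) and in no other fit.

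Same-numbered samples did not all pair. Over all plasmids their deviations correlated by 0.055, 0.11 and -0.022 in AGY1612 and by 0.028, 0.079 and 0.079 in AGY1611. Over plasmids with T0 samples over 2-fold apart the values were 0.32, 0.57 and -0.21 (109 plasmids) and 0.30, 0.74 and 0.31 (30 plasmids). A replicate block is therefore an alternative. With a replicate block AGY1612 had 49 rises and 93 falls, with RRP6, NOT5, ATP15 and RPN10 losing the call, and 67 and 139 with a replicate block within strain. AGY1611 had 0 and 0 with either. Paired differences with sign flips for the effective number gave the same change of -708.1 (exact two-sided p = 0.25, the smallest 3 pairs allow).

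Medians relative to all plasmids were refitted for the lists of the ATP synthase, mitochondrial ribosome, proteasome, ubiquitin, histones and tubulins. The spindle pole body and kinetochore, vacuolar ATPase, permease, chromosome XII and centromere sets were refitted too. These medians kept their sign in every fit run, and the other lists were not refitted. The ATP synthase median of 0.56 was 0.72 in limma, 0.71 with a replicate block within strain and 0.52 to 0.70 with a replicate or sample left out. That of ubiquitin genes (0.26) was 0.39, 0.36 and 0.26 to 0.42, and that of genes beside a centromere (-1.30) was -1.65, -1.20 and -2.03 to -1.01. The chromosome XII median (-0.17) was -0.10 with no filter and -0.21 to -0.046 with a replicate or sample left out, and the latter range was -0.42 to -0.13 for spindle and kinetochore genes and -0.95 to -0.41 for the vacuolar ATPase. HEL2 (-0.25) ran from -3.21 to 0.63 with a replicate or sample left out and was above 0 without replicate 2 or 3 (0.20, 0.63) or day 1 replicate 2 or 3 (0.47, 0.60). RKR1 (-0.41) ran from -1.65 to 0.22 and was above 0 without replicate 2 (0.19) or day 1 replicate 1 or 2 (0.068, 0.22). Of the plasmids under 100 CPM at T0, RRP6 alone was called.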
